A study of Saccharomyces cerevisiae with 12 samples.

Results

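The 7 genes described here encode chaperones of the yeast mitochondrial matrix, the innermost compartment of the mitochondrion. They are HSP60 (YLR259C), HSP10 (YOR020C), SSC1 (YJR045C), MDJ1 (YFL016C), MGE1 (YOR232W), HSP78 (YDR258C) and ZIM17 (YNL310C), picked out by gene identifier, a rule that uses no measured value, though the set was proposed with earlier results of these data known. All 7 were among the 6660 features of the deposited count table and all 7 passed the low-count filter that kept 6195 genes for testing. Their identifiers carry these symbols in the RefSeq annotation of assembly R64.

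Messenger RNA was measured in budding yeast of strain background BY4743, a diploid laboratory strain, in 12 libraries. There were 4 libraries without ATG41 (atg41Δ, named icy2 in the count table after the gene's other name), 4 without ATG1 (atg1Δ) and 4 of the wild type (WT). All 3 strains were grown with ample zinc, washed 3 times and kept in zinc-limiting liquid medium for 8 h at 30 °C, so every library comes from zinc-deficient cells and no zinc-replete culture was analysed here. In autophagy cells enclose parts of their cytoplasm in membranes and degrade them in the vacuole. Atg1 is the protein kinase at the start of this process, and Atg41 a factor without which it runs at a reduced rate. The labels give quadruplicates but neither the number of clones of each deletion nor whether every library had its own culture. The p-values therefore rest on the spread between libraries, part of which may be technical.

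Most mitochondrial proteins are made in the cytosol and cross the inner membrane unfolded. The mitochondrial Hsp70, encoded by SSC1, pulls them in and helps them fold, with the J-protein Mdj1 stimulating its ATPase, the nucleotide exchange factor Mge1 releasing its ADP, and Zim17, a zinc finger protein, keeping Hsp70 itself from aggregating. Hsp60 forms a barrel in which imported proteins fold under a lid made of Hsp10, and Hsp78, a relative of bacterial ClpB, dissolves aggregates together with Hsp70. Several of these genes are known targets of the heat shock factor Hsf1, whose binding sites, heat shock elements, are inverted repeats of the unit GAA.

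Because some of the genes moved together and others did not, the DNA before their start codons was searched for these elements. The windows ran from 250 bases before the start codon to 50 bases from it, read from the R64 genome of RefSeq, the authors' own build being unknown from the sources used here. A heat shock element of 3 units in alternating direction (GAANNTTC or TTCNNGAA followed, after any 2 bases, by the next unit), on either strand, was present before HSP60, HSP10 and HSP78, and in 0.782% of 6007 such windows of the genome. The 3 windows and that of SSC1, which holds no match, are shown 5′ to 3′ on the coding strand. Every match to 2 or 3 units is in capitals.
HSP60 promoter, chrXII:664953-665252, minus strand: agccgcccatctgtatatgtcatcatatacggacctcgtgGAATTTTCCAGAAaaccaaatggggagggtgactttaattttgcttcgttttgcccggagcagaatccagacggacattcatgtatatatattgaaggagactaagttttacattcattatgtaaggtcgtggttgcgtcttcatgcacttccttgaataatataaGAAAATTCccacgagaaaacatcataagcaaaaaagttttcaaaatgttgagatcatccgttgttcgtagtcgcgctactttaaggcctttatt
HSP10 promoter, chrXV:370795-371094, minus strand: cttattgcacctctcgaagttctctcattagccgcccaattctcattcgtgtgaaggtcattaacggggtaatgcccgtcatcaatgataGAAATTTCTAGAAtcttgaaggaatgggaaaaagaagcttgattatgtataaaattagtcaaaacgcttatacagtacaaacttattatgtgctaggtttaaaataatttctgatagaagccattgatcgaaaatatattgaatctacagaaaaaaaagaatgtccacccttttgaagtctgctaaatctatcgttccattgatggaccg
HSP78 promoter, chrIV:974194-974493, minus strand: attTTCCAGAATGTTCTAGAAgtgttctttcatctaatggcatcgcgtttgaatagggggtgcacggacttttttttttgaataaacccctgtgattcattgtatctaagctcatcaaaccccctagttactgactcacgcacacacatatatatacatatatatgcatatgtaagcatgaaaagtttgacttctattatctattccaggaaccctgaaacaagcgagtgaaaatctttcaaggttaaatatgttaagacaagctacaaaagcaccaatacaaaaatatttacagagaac
SSC1 promoter, chrX:521553-521852, minus strand: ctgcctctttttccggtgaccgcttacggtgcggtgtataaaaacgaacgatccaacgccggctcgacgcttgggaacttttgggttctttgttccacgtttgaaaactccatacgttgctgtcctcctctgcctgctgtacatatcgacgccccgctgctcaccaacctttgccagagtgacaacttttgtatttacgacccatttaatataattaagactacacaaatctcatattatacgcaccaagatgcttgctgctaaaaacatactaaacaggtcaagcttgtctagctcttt

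In the HSP60 window the element lay 210 to 198 bases upstream of the start codon, and 1 further pair of units, GAAAATTC, lay 44 to 37 bases upstream. In the HSP10 window it lay 160 to 148 bases upstream. HSP78 had 4 alternating units from 247 to 230 bases upstream, which are 2 overlapping matches to the element. Pairs of units, GAANNTTC or TTCNNGAA, occur within each of these elements, were found before the same 3 genes, and are common, with 22.6% of all windows holding at least 1. No window of the 7 held the form with a wider gap, in which 7 bases of any kind separate a pair of units from the next one (0.649% of all windows). The stress response element AGGGG, or CCCCT on the other strand, to which Msn2 and Msn4 bind, was found 3 times before HSP78 and before no other of the 7 genes (21.6% of all windows), and CACGTG, bound by Cbf1, before none (2.91%). A match is a stretch of letters and not evidence of binding. Sites farther upstream or of other forms were not searched for, so a window without a match may still have sites nearby. A link between matches and transcript levels was not tested.

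**Figure D1:**
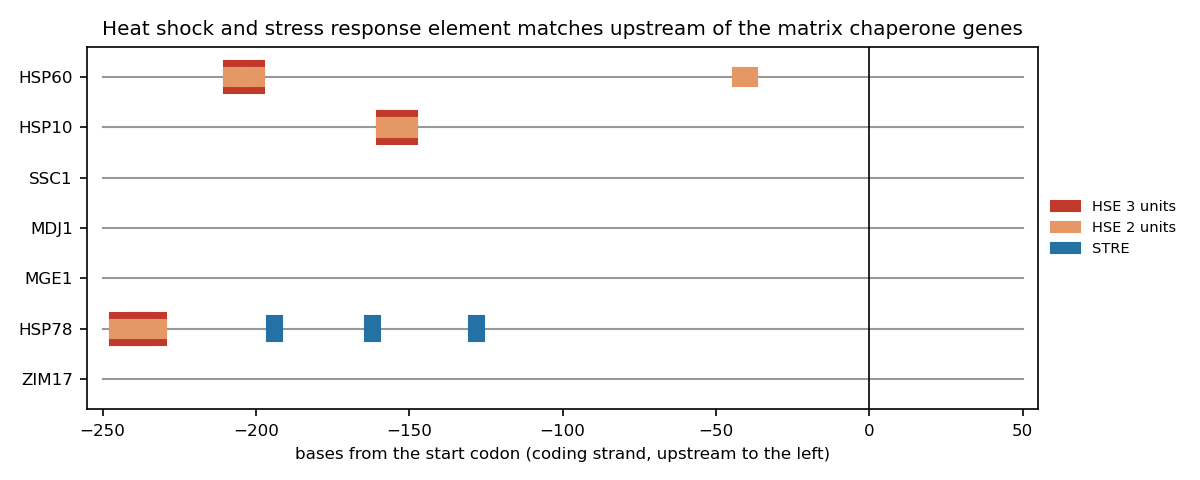
Position of motif matches before the 7 genes, in bases from the start codon, upstream to the left. Red blocks are heat shock elements of 3 units, orange blocks pairs of units (inside the red ones, plus 1 pair near the HSP60 start), and blue blocks stress response elements. Matches appear only before HSP60, HSP10 and HSP78.

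The genes lie apart from each other, on chromosome XII for HSP60 (663284 to 665002), XV for HSP10 (370524 to 370844) and MGE1 (774573 to 775259), X for SSC1 (519638 to 521602), VI for MDJ1 (104701 to 106236), IV for HSP78 (971808 to 974243) and XIV for ZIM17 (51907 to 52431), all in R64. MGE1 is on the plus strand and the other 6 on the minus strand. Each is a single coding segment that overlaps no other annotated gene, so the lack of strand in the library kit gives no shared reads with an annotated neighbour inside the coding parts. Coding lengths ran from 321 bases for HSP10 to 2436 for HSP78. GC content was lowest in MGE1 (38.1%) and HSP78 (38.8%) and highest in MDJ1 (46.9%). SSC1 has a close paralog, ECM10, and its expected counts were not whole in 2 libraries, so a small part of its reads may be divided between them. The expected count of HSP60 was also not whole in atg41Δ replicate 4 (10705.47).

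Libraries held 9623157 to 11247182 expected counts, and the 7 genes had between 234 (ZIM17) and 13313 (SSC1) in any 1 library. ATG1 had 0 counts in all 4 atg1Δ libraries and 93.2 to 109 CPM (counts relative to the scaled library total, as edgeR gives them) in WT, and ATG41 had 1 count in the 4 atg41Δ libraries together and 660 to 762 CPM in WT. The first principal component, 65.8% of the variance, separated the atg41Δ libraries from the other 8, and 4081 of the 6195 genes (65.9%) passed the test between atg41Δ and WT, 29.9% higher and 35.9% lower. Replicate 1 of atg1Δ stood apart from the other 3 of its strain, with a chi-square per gene of at least 33.1 against each, where every other library had a same-strain partner at 3.43 to 7.52. Levels are shares of each library's messenger RNA, so messenger RNA per cell was not measured.

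Per transcript length, the 7 genes differed widely in abundance. In TPM (the authors' values, which take transcript length into account) HSP10 was the most abundant in every strain, with 828 ± 30.0 in atg41Δ, 511 ± 23.2 in atg1Δ and 520 ± 12.9 in WT (SD, n = 4 each). SSC1 came second, with 632 ± 17.8 TPM in atg41Δ, 355 ± 34.0 in atg1Δ and 325 ± 5.16 in WT. HSP60 followed, with 608 ± 8.63 TPM in atg41Δ, 271 ± 8.58 in atg1Δ and 245 ± 6.08 in WT. In each strain the 4 libraries of each of these 3 genes did not overlap with those of the next gene in the order. HSP78 and MGE1 came next, at 142 ± 10.9 and 115 ± 5.71 TPM in atg41Δ, 139 ± 30.8 and 124 ± 12.4 in atg1Δ, and 155 ± 13.6 and 142 ± 15.1 in WT. Their libraries overlapped in atg1Δ and in WT. MDJ1 and ZIM17 were the lowest, between 54.5 and 59.4 TPM on average in any strain, and overlapped with each other in all 3. Summed over the 7 genes the level was 2355 to 2497 TPM in atg41Δ, 1492 to 1554 in atg1Δ and 1461 to 1568 in WT.

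The first comparison asks how the matrix chaperones differ when ATG41 is missing during zinc deficiency. The chaperonin HSP60, its lid HSP10 and the Hsp70 gene SSC1 rose, while none of the Hsp70 partners among the 7 was called higher. MGE1 fell, and MDJ1, ZIM17 and HSP78 did not pass the test. In all, 3 of the 7 rose and 1 fell, beside 29.9% and 35.9% of all genes tested, and the median log2 fold change over the 7 was 0.07, beside -0.04 over all genes.

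HSP60 had 1078, 1085, 1166 and 1089 CPM in the atg41Δ libraries, against 453, 452, 420 and 453 CPM in the WT libraries. Every atg41Δ library lay above every WT library, as in 30.1% of all genes. The log2 fold change was 1.31 ± 0.07 (SE), or 2.48-fold, with an edgeR adjusted p of 1.10e-09. It was the 154th highest among the 6195 genes.

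HSP10 had 200, 212, 203 and 206 CPM in atg41Δ, against 132, 127, 130 and 127 CPM in WT, again with no overlap. Its log2 fold change was 0.67 ± 0.04, or 1.59-fold (edgeR adjusted p = 5.27e-09). The barrel and its lid were then set against each other within each library. The ratio of HSP60 to HSP10, from TPM within each library, averaged 0.736 ± 0.0370 in atg41Δ and 0.472 ± 0.0215 in WT (SD, n = 4 each). The difference of 0.64 ± 0.05 on the log2 scale was past the threshold in an exact two-sided permutation test (p = 0.0286, the smallest that 4 libraries against 4 allow, and 0.0468 adjusted over the 18 ratio tests). The ratio was higher in all 4 atg41Δ libraries. Every ratio at this p shares the same adjusted value. That value would be higher for all of them if fewer of the 18 tests reached this p, so the ratio calls hang together. With the GC and length trend removed, an alternative chosen after seeing the data, the difference was 0.35 (exact permutation p = 0.0286, unadjusted), as HSP10 was then at 0.89 and HSP60 at 1.24.

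SSC1 had 1267, 1324, 1345 and 1354 CPM in atg41Δ, against 693, 671, 675 and 676 CPM in WT. The groups did not overlap, and the log2 fold change was 0.96 ± 0.09, or 1.95-fold (edgeR adjusted p = 4.12e-07). SSC1 rose by less than HSP60, the ratio of HSP60 to SSC1 being 0.962 ± 0.0331 in atg41Δ and 0.755 ± 0.0270 in WT, a log2 difference of 0.35 ± 0.04 (exact permutation p = 0.0286, adjusted 0.0468).

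Of the Hsp70 partners, MGE1, the exchange factor, had 78.3, 78.0, 74.7 and 73.0 CPM in atg41Δ, against 85.0, 91.0, 103 and 93.0 CPM in WT. All 4 atg41Δ libraries lay below all 4 WT libraries, as they did for 35.2% of all genes. Its log2 fold change was -0.29 ± 0.08, a fall past the threshold (edgeR adjusted p = 0.00652). With each library's trend over GC content and coding length removed the log2 fold change was -0.09 and the call was lost (edgeR adjusted p = 0.305).

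MDJ1, the J-protein, was uneven among the atg41Δ libraries, at 92.9, 124, 60.2 and 102 CPM, against 98.3, 95.2, 90.8 and 95.6 CPM in WT. The highest and the lowest of all 12 libraries for this gene were both atg41Δ libraries, and the WT range lay inside theirs. The log2 fold change was 0.00 ± 0.16 with a 95% interval of -0.35 to 0.34 (edgeR adjusted p = 0.984), which does not show that the level is the same. The low library was atg41Δ replicate 3. Without it the log2 fold change was 0.16, and the gene still did not pass (edgeR adjusted p = 0.0849).

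ZIM17, the scarcest of the 7 in CPM, had 27.4, 25.3, 30.6 and 30.2 CPM in atg41Δ, against 27.2, 24.4, 30.1 and 26.4 CPM in WT, overlapping throughout. Its log2 fold change was 0.07 ± 0.08, with a 95% interval of -0.10 to 0.24 (edgeR adjusted p = 0.437). HSP78, the disaggregase, had 380, 383, 341 and 377 CPM in atg41Δ, against 387, 408, 441 and 386 CPM in WT. Its 4 atg41Δ libraries lay below the 4 WT libraries, the gap between the groups being small, and it did not pass (-0.13 ± 0.10, 95% interval -0.35 to 0.09, edgeR adjusted p = 0.267). At equal library totals it was at -0.27 (edgeR adjusted p = 0.0845), and without atg1Δ replicate 1, which enters the shared estimate of spread, the adjusted p in edgeR was 0.0502. The interval of HSP78 lies below the intervals of HSP60 (1.16 to 1.46) and HSP10 (0.58 to 0.76).

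**Figure D2:**
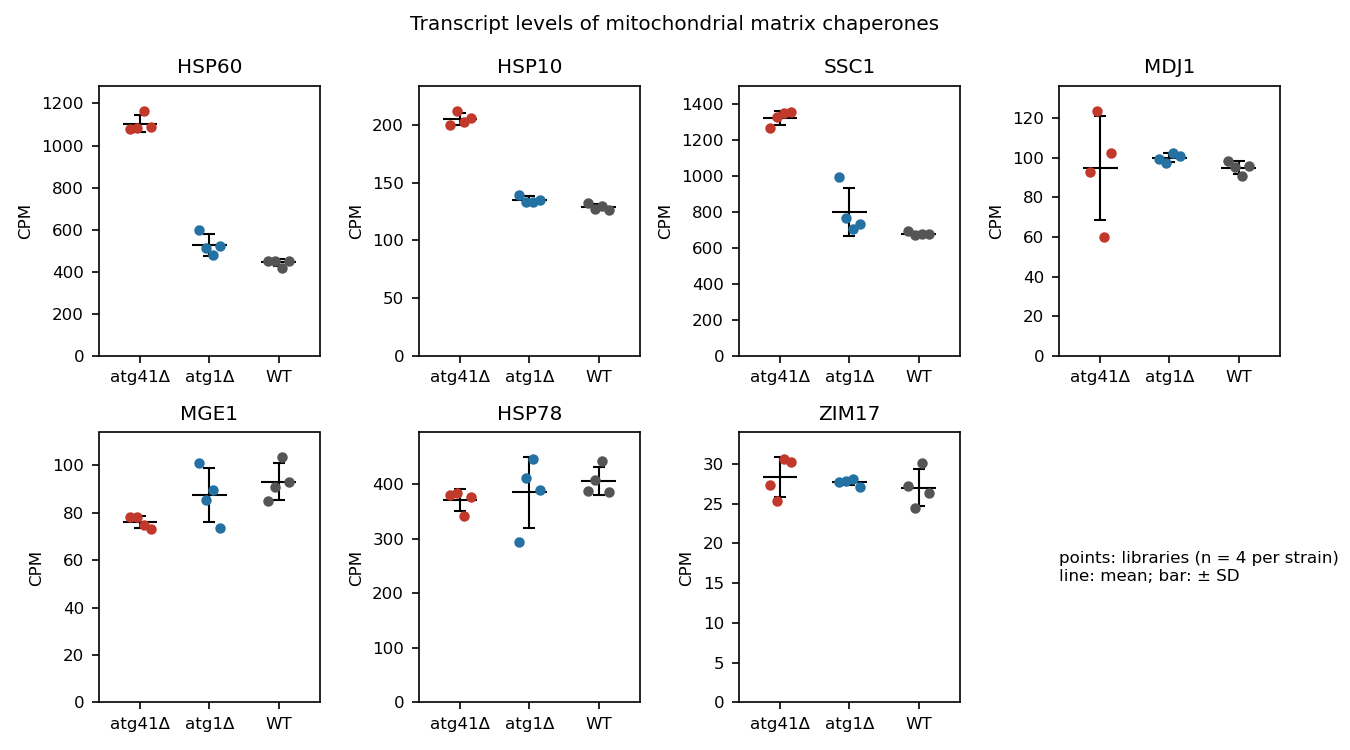
CPM of each gene in the 12 libraries, by strain, with the mean as a line and the SD as a bar (n = 4). The atg41Δ points of HSP60, HSP10 and SSC1 lie above all others, those of MDJ1 are the most scattered, from 60.2 to 124 CPM, and 1 atg1Δ library (replicate 1) is the highest of its strain for SSC1 and the lowest for HSP78.

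The ratios of SSC1 to its partners moved accordingly. SSC1 to MGE1 averaged 5.49 ± 0.334 in atg41Δ and 2.31 ± 0.210 in WT (log2 difference 1.25 ± 0.08), and SSC1 to ZIM17 averaged 10.7 ± 0.864 in atg41Δ and 5.76 ± 0.481 in WT (0.89 ± 0.08). SSC1 to MDJ1 ranged from 8.23 to 17.2 in atg41Δ and from 5.43 to 5.72 in WT (1.01 ± 0.23, and 0.80 without atg41Δ replicate 3). HSP78 to SSC1 averaged 0.224 ± 0.0159 in atg41Δ and 0.477 ± 0.0342 in WT (-1.09 ± 0.07). In each of these 4 ratios the 4 atg41Δ libraries lay on 1 side of the 4 WT libraries, each with an exact permutation p of 0.0286 and an adjusted p of 0.0468. The call of SSC1 to MDJ1 was lost without WT replicate 1 or WT replicate 2 (exact permutation p = 0.0571 in each case, unadjusted). These ratios need no scaling between libraries, but they share SSC1 and are not independent of each other. With the GC and length trend removed, chosen after seeing the data, SSC1 to MGE1 was at 0.98 and SSC1 to ZIM17 at 0.71. SSC1 to MDJ1 was then at 1.13 and HSP78 to SSC1 at -0.99, each with an unadjusted exact permutation p of 0.0286.

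**Figure D3:**
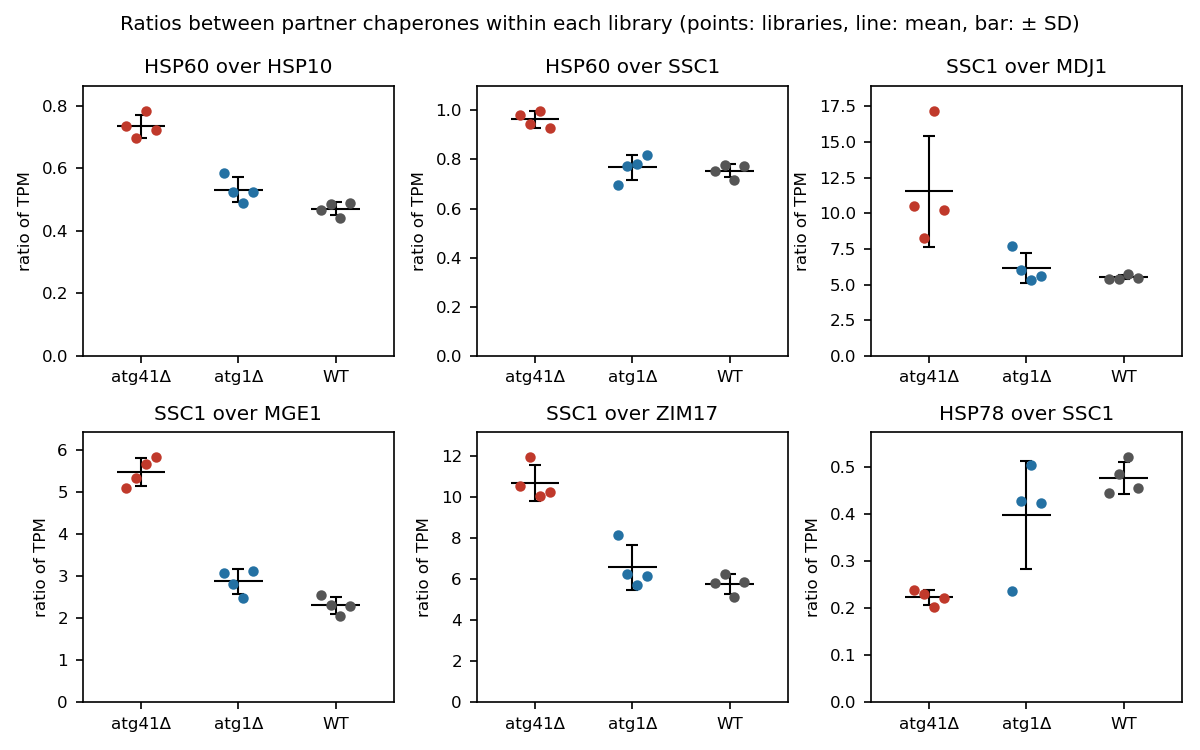
Ratio of TPM between pairs of matrix chaperones within each library, by strain, with the mean as a line and the SD as a bar (n = 4). The atg41Δ libraries are apart from WT in all 6 ratios, and the atg1Δ means lie nearer to the WT means. For HSP78 to SSC1, replicate 1 of atg1Δ is at 0.237, inside the atg41Δ range of 0.203 to 0.240. The WT libraries are at 0.446 to 0.522 there.

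The second comparison asks the same of ATG1. None of the 7 passed the test between atg1Δ and WT (0 higher and 0 lower in edgeR, with 1 higher in DESeq2), where 3.73% of all genes did, 0.387% higher and 3.34% lower. At an unadjusted p under 0.05 the genes were HSP60 and SSC1, among 1313 genes in all.

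HSP60 had 598, 512, 478 and 521 CPM in the atg1Δ libraries, against 453, 452, 420 and 453 CPM in WT. The groups did not overlap, and the log2 fold change was 0.25 ± 0.07 (edgeR adjusted p = 0.0630). DESeq2 called it higher (0.27, adjusted p = 0.00598), and so did edgeR without atg1Δ replicate 3 (0.28, adjusted p = 0.0263), while at equal library totals it was at 0.16 and in limma on log2(TPM + 1) at 0.15, without passing. Over the 20 alternatives tried the adjusted p ran from 0.00598 to 0.231. SSC1 had 992, 763, 704 and 732 CPM in atg1Δ, against 671 to 693 CPM in WT, and was at 0.23 ± 0.09 (edgeR adjusted p = 0.157). Its highest value was that of replicate 1, without which it was at 0.11 (edgeR adjusted p = 0.213).

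HSP10 had 139, 133, 133 and 135 CPM in atg1Δ, against 127 to 132 CPM in WT, and was at 0.07 ± 0.04 (edgeR adjusted p = 0.346). With HSP60 and SSC1 it made 3 of the 7 genes whose atg1Δ libraries all lay above WT, as 4.70% of all genes did, but with libraries scaled to equal totals HSP10 was at -0.01. MDJ1 had 97.2 to 102 CPM in atg1Δ and 90.8 to 98.3 in WT (0.07 ± 0.16), and ZIM17 had 27.1 to 28.1 CPM in atg1Δ and 24.4 to 30.1 in WT (0.04 ± 0.08). Both overlapped with WT.

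MGE1 had 101, 85.2, 89.6 and 73.7 CPM in atg1Δ, within or below the WT range of 85.0 to 103, and was at -0.09 ± 0.08 (edgeR adjusted p = 0.541). The value ran from -0.17 without atg1Δ replicate 1 to -0.018 without atg1Δ replicate 4, and was -0.0023 with the GC and length trend removed. HSP78 had 294 CPM in atg1Δ replicate 1 and 389 to 445 in the other 3, against 386 to 441 CPM in WT. It was at -0.08 ± 0.10 (edgeR adjusted p = 0.698) and at 0.03 without replicate 1. In CPM and in TPM alike, replicate 1 of atg1Δ was the highest of its strain for HSP60 and SSC1 and the lowest for HSP78. For HSP10 it was the highest in CPM but the lowest in TPM (479), and the part of its overall distance from the other atg1Δ libraries in these values was not tested.

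None of the 6 ratios differed between atg1Δ and WT past the threshold. The largest difference was that of SSC1 to MGE1, 2.88 ± 0.302 in atg1Δ and 2.31 ± 0.210 in WT (log2 difference 0.32 ± 0.10, exact permutation p = 0.0571, adjusted 0.0735). HSP60 to HSP10 was 0.532 ± 0.0405 in atg1Δ and 0.472 ± 0.0215 in WT, with the same p-values, and HSP60 to SSC1 was 0.767 ± 0.0527 in atg1Δ and 0.755 ± 0.0270 in WT (exact permutation p = 0.686). HSP78 to SSC1 was 0.399 ± 0.114 in atg1Δ and 0.477 ± 0.0342 in WT (log2 difference -0.31 ± 0.25, exact permutation p = 0.200), and the difference was -0.078 without atg1Δ replicate 1. With the GC and length trend removed the difference was 0.18 for SSC1 to MGE1 and -0.20 for HSP78 to SSC1, and none of the 6 passed. Without atg1Δ replicate 3, HSP60 to HSP10 (log2 difference 0.21), SSC1 to MGE1 (0.39) and HSP78 to SSC1 (-0.44) each reached an unadjusted exact permutation p of 0.0286.

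The last comparison set atg41Δ directly against atg1Δ. It had the same calls as atg41Δ against WT, HSP60, HSP10 and SSC1 higher and MGE1 lower. This comparison shares its libraries with both of the others and gives no independent evidence. Of the 7 genes 3 were higher and 1 was lower in atg41Δ than in atg1Δ, beside 31.0% and 33.0% of all genes (63.9% in both directions). The log2 fold change of HSP60 was 1.07 ± 0.07 (edgeR adjusted p = 8.93e-09), that of SSC1 0.73 ± 0.09 (6.72e-06) and that of HSP10 0.60 ± 0.04 (1.71e-08). MGE1 was lower, at -0.20 ± 0.08 (edgeR adjusted p = 0.0486), with overlapping libraries, a call at the edge of the threshold that was lost under 15 of the 20 alternatives, with adjusted p from 0.00488 to 0.329 over all 20. MDJ1 (-0.08 ± 0.16), HSP78 (-0.05 ± 0.10) and ZIM17 (0.03 ± 0.08) did not pass. Without atg1Δ replicate 1 HSP78 was lower in atg41Δ (-0.16, edgeR adjusted p = 0.0275). Of the 6 ratios 5 had an exact permutation p of 0.0286 and an adjusted p of 0.0468, and HSP78 to SSC1, at 0.224 ± 0.0159 in atg41Δ and 0.399 ± 0.114 in atg1Δ, had 0.0571 and 0.0735. With 1 library left out, SSC1 to MDJ1 was lost in 5 of 8 cases (any atg1Δ library, or atg41Δ replicate 3) and SSC1 to ZIM17 in 4 of 8 (any atg41Δ library), each with an unadjusted exact p of 0.0571. HSP78 to SSC1 reached an unadjusted exact p of 0.0286 without atg1Δ replicate 1. With the GC and length trend removed HSP60 to HSP10 was at 0.21 and lost its call (exact permutation p = 0.0857, unadjusted), and HSP78 to SSC1 was at -0.79 (0.0286).

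**Figure D4:**
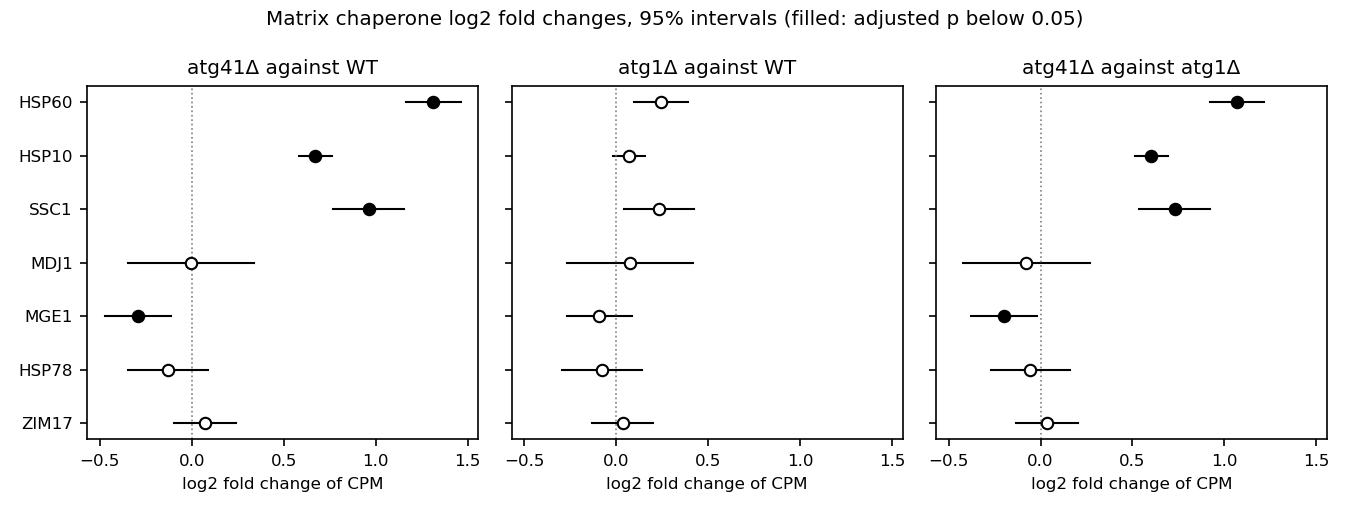
Log2 fold change of CPM for each gene in the 3 comparisons, with 95% intervals. Filled points passed the edgeR test (adjusted p below 0.05). HSP60 (1.31), SSC1 (0.96) and HSP10 (0.67) stand to the right in atg41Δ against WT, and all intervals are close to 0 or reach it in atg1Δ against WT.

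The authors' deposited tables of edgeR comparisons, with the sign set so that positive is higher in the deletion, gave HSP60 a log2 fold change of 1.34, SSC1 0.99, HSP10 0.70 and MGE1 -0.27 in atg41Δ against WT. In the authors' deposited table of atg1Δ against WT, HSP60 was at 0.25 with a false discovery rate of 0.215. In the authors' deposited table of atg41Δ against atg1Δ, MGE1 was at -0.20 with a false discovery rate of 0.0621.

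The surroundings of these chaperones in the cell were read from 10 lists holding 93 other genes, all of them tested. In atg41Δ against WT 56 of the 93 rose and 15 fell, 60.2% and 16.1%, beside 29.9% and 35.9% of all genes. Many of those that rose are genes of other compartments than the mitochondrion. Of endoplasmic reticulum chaperones 10 of 10 rose, of cytosolic Hsf1 targets 13 of 17 (2 fell), and of cytosolic chaperonin genes 7 of 8. The counts of each list are to be read against the shares of all genes. Of the other chaperones and folding factors of the mitochondrion 2 of 6 were higher and 3 lower (median -0.24), a mix not far from those shares. CPR3, a matrix prolyl isomerase, rose (0.51 ± 0.06), and so did ECM10, the SSC1 paralog (0.30 ± 0.09), a call lost under 2 of the 20 alternatives. MDJ2, a J-protein of the inner membrane, fell by 0.98 ± 0.17 at a low level (3.44 ± 0.638 CPM in atg41Δ, 6.81 ± 0.231 in WT), and SSQ1, the Hsp70 of iron-sulfur cluster transfer, fell by 0.54 ± 0.08.

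The import machinery that hands proteins to the matrix was read next. In the TIM23 translocase and its motor 5 of 9 genes rose and 1 fell (median 0.27), from TIM50, the presequence receptor (0.51 ± 0.06), to TIM21 (-0.43 ± 0.06). In the TOM complex of the outer membrane 2 of 7 rose and 1 fell, with the channel TOM40 at 0.43 ± 0.10 and TOM7 at -0.36 ± 0.14, a call lost under 7 of the 20 alternatives. Of the small chaperones of the intermembrane space and the oxidative import pathway 0 of 7 rose and 5 fell, from TIM13 (-0.27 ± 0.08) to TIM10 (-0.41 ± 0.09), but with the GC and length trend removed 2 rose and 1 fell. In presequence processing 4 of 8 rose and 1 fell, with IMP1, a subunit of the inner membrane peptidase, at 0.64 ± 0.05 and ICP55, an aminopeptidase, at -0.44 ± 0.08.

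In the list of quality control proteases, which is not made of proteases alone, 6 of 8 genes rose and 1 fell. The highest was MGR1, an adaptor of the i-AAA protease, at 0.73 ± 0.07. The gene that fell was MCX1, the mitochondrial ClpX homolog, at -0.41 ± 0.07. PIM1, the matrix Lon protease that degrades what the chaperones cannot fold, rose by 0.31 ± 0.05, an example chosen after its value was seen. Iron-sulfur cluster assembly rose in 7 of 13 and fell in 1, with the exporter ATM1 at 0.67 ± 0.05 and ISA2 at -0.21 ± 0.07, a call lost under 4 of the 20 alternatives. Its member YAH1, which lies beside the deleted ATG41, was at -0.07 ± 0.07 and did not pass.

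Folding genes of other compartments were read in the same way. All 10 chaperone genes of the endoplasmic reticulum rose (median 1.30), from JEM1, a J-protein (0.70 ± 0.07), to EUG1, a disulfide isomerase (1.59 ± 0.06). There the Hsp70 gene KAR2 rose (1.51 ± 0.06), as did its exchange factors SIL1 (1.38 ± 0.07) and LHS1 (0.77 ± 0.05), examples chosen after their values were seen. Of 17 cytosolic chaperones known as Hsf1 targets 13 rose and 2 fell (median 0.64), from STI1, an Hsp90 partner (1.25 ± 0.06), to SSA4, a stress-induced Hsp70 (-1.11 ± 0.13). The cytosolic chaperonin CCT, which folds actin and tubulin as Hsp60 folds matrix proteins, rose in 7 of 8 genes with small changes, 0.15 ± 0.06 for CCT5 to 0.35 ± 0.07 for CCT4 among those that rose. The call of CCT5 was lost under 14 of the 20 alternatives. These lists were not tested against the 7 matrix chaperones.

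**Figure D5:**
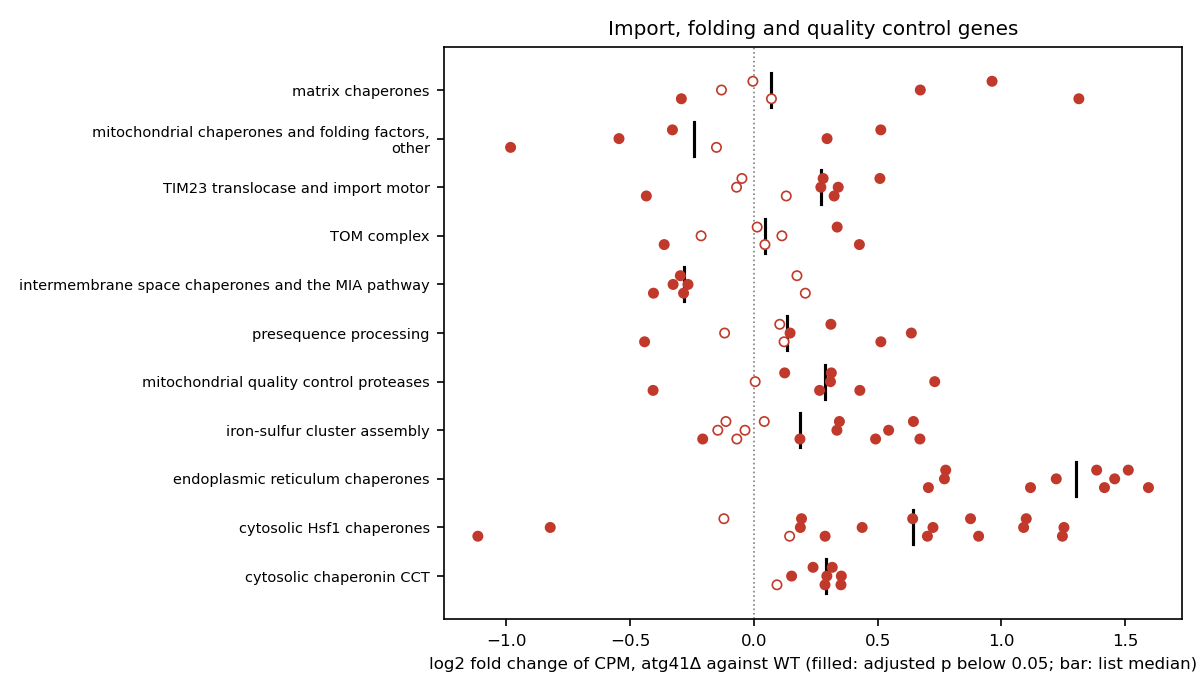
Log2 fold change of CPM in atg41Δ against WT for the 7 matrix chaperones and the genes of 10 further lists. Each point is a gene, filled where it passed the edgeR test (adjusted p below 0.05), and bars are list medians. The matrix chaperones spread from -0.29 to 1.31, while all 10 endoplasmic reticulum chaperones lie at 0.70 or above.

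In atg1Δ against WT the same 10 lists held 0 genes that rose and 3 of 93 that fell, 3.23% beside 3.34% of all genes. These were MIA40, the oxidoreductase of intermembrane space import (-0.46 ± 0.10, edgeR adjusted p = 0.0271), MCX1 (-0.43 ± 0.07, 0.00756) and PAM16, a regulator of the import motor (-0.23 ± 0.06, 0.0439). The call of PAM16 was lost under 13 of the 20 alternatives and that of MIA40 under 7, while that of MCX1 held under all 20.

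Genes whose levels ran most like those of a matrix chaperone were found by the root mean square difference of log2 CPM, centred on each gene's mean over the 12 libraries, among 5533 other genes. This is a description and says nothing of shared control. Nearest to HSP60 were PMI40, a mannose phosphate isomerase (difference 0.0421), HSU1 (0.0795) and IPP1, the cytosolic pyrophosphatase (0.0814). SSC1 was nearest to SSA2, a cytosolic Hsp70 (0.0465), SPF1, an ATPase of the endoplasmic reticulum (0.0513), and TDA3 (0.0575). For HSP78 they were ATG20, a sorting nexin of autophagy (0.0608), STP2, a transcription factor of amino acid permease genes (0.0709), and VAB2 (0.0768). Among the 7 themselves the closest pair was HSP10 and SSC1 (0.156) and the farthest HSP60 and MGE1 (0.701).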

How the data were processed

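Per the labels' protocols, TruSeq libraries of poly-A RNA were sequenced from single ends, 4 per strain and 12 in all. The authors deposited expected counts, a unit inferred from the values, 18.4% of which were not whole. They also deposited TPM. From the authors' deposited tables of comparisons, the log2 fold changes, p-values and false discovery rates were read. The sign of the log2 values in the authors' deposited tables was set from the deleted genes. BWA, STAR, RSEM and edgeR are named by the submitters' processing notes, with no role. Versions and the genome build were not given in the sources used here. Another 12 per-sample columns of that count file were left out because their names fit none of the labelled samples.

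Expected counts were rounded. Genes were kept with edgeR's filterByExpr (minimum count 10, minimum total 15), scaled with TMM factors, and tested with edgeR 4.0.16 (R 4.3.3) by the quasi-likelihood F test, robust, strain as the factor, all 12 libraries in 1 fit, two-sided. Benjamini-Hochberg adjustment ran over the 6195 genes, threshold 0.05. A standard error is the log2 fold change divided by the square root of F. Ratios between genes were tested by exact two-sided permutation of libraries, adjusted over 18 tests. Alternatives used DESeq2 1.42.0 and limma 3.58.1. The fit was tested on simulated data. The 7 genes, the lists and the tests were chosen with earlier results of these data known. Genes named are the 7, the deleted genes, the highest and lowest passing gene of each list, the 3 nearest genes by level for HSP60, SSC1 and HSP78, and examples marked as chosen later. ECM10, SSQ1 and YAH1 are such examples. Protein sequences were not analysed here.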

Additional observations from a re-analysis of the deposited data

Results flagged for a closer look

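In 39 sets of 4 libraries (the 7 genes and the 6 ratios in each strain), 4 had 1 library far from the other 3, judged by its gap to the nearest other library as a share of the range (Dixon's 95% limit). Chance alone marks about 5% of such sets. Replicate 3 of atg41Δ was high for HSP60 at 1166 CPM, where the other 3 were at 1078 to 1089, and low for HSP78 at 341 CPM, where the others were at 377 to 383. Replicate 3 of WT was low for HSP60 at 420 CPM, where the others were at 452 to 453. The same WT library had a ratio of SSC1 to MDJ1 of 5.72, where the others were at 5.43 to 5.45. The 60.2 CPM of MDJ1 in atg41Δ replicate 3 did not meet this criterion, because the other 3 libraries were themselves spread from 92.9 to 124 CPM.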

How the results depend on the processing

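Each comparison was repeated under 20 alternatives, 12 of which left out 1 library. HSP60, HSP10 and SSC1 were higher in atg41Δ than in WT, and past the threshold, under all 20, with log2 fold changes of 1.18 to 1.34, 0.54 to 0.89 and 0.83 to 0.99. In atg1Δ against WT 1 gene, HSP60, was called in DESeq2 and without atg1Δ replicate 3, so that the count ran from 0 to 1 with 1 library left out. In atg41Δ against atg1Δ the count was 3 to 4. MDJ1, ZIM17, HSP10 and HSP78 changed sign in some comparisons, always in a fit where the gene did not pass. In atg41Δ against WT, MDJ1 was at 0.029 with DESeq2 size factors and in DESeq2, at 0.023 in a fit of only those strains, and from -0.16 to 0.16 with 1 library left out, and ZIM17 was at -0.067 at equal library totals. In atg1Δ against WT, HSP10, MDJ1 and ZIM17 were at -0.013, -0.0069 and -0.046 at equal totals and at -0.026, -0.021 and -0.054 in limma on log2(TPM + 1). MDJ1 was there at -0.0062 and ZIM17 at -0.0025 with the GC and length trend removed, and with 1 library left out ZIM17 ran from -0.019 to 0.082 and HSP78 from -0.17 to 0.033. In atg41Δ against atg1Δ, ZIM17 was at -0.022 at equal totals and HSP78 at 0.054 in limma, and with 1 library left out MDJ1 ran from -0.23 to 0.088, HSP78 from -0.16 to 0.025 and ZIM17 from -0.0033 to 0.085. The cause of these changes was not tested.

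Equal totals moved the median of all genes in atg41Δ against WT to -0.17 from -0.04, and the higher share of calls to 30.8% from 45.5%. In atg41Δ against atg1Δ that share was 48.4%, and 60.0% in limma. In atg1Δ against WT the count over all genes was 231, against 396 in DESeq2, 378 at equal totals, 142 with the trend removed, 69 in a fit of only those strains and 53 to 457 with 1 library left out, and the higher share was 10.4%, against 33.8% in DESeq2, 21.1% with the trend removed, 3.97% at equal totals and 3.41% in limma. Of 200 recomputed list counts 1 moved by over 1.5 times in atg41Δ against WT, 29 in atg1Δ against WT and 6 in atg41Δ against atg1Δ. Among the genes named from these lists in atg41Δ against WT, TOM7 and ISA2 each changed sign under 1 alternative (to 0.063 and 0.071). Presequence processing had 2 higher and 2 lower at equal totals in atg41Δ against WT.

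Deviations of same-numbered libraries of different strains had r from -0.166 to 0.164. Differently numbered libraries were not correlated, so these values do not decide whether the numbers pair them. The main fit took the libraries as unpaired. With the replicate block the 7 genes had 4, 0 and 3 calls in the 3 comparisons, MGE1 in atg41Δ against atg1Δ being lost (-0.20, edgeR adjusted p = 0.0573). For the ratios the replicate block cannot go below an exact p of 0.125, so every ratio call was lost under it, with unmoved differences, in atg41Δ against WT 0.64 (HSP60 to HSP10), 0.35 (HSP60 to SSC1), 1.01 (SSC1 to MDJ1), 1.25 (SSC1 to MGE1), 0.89 (SSC1 to ZIM17) and -1.09 (HSP78 to SSC1), and in atg41Δ against atg1Δ 0.47, 0.33, 0.87, 0.94 and 0.71 for the first 5. With the GC and length trend removed, added after seeing the data, HSP60 to HSP10 in atg41Δ against atg1Δ lost its call (0.21) and HSP78 to SSC1 there gained one (-0.79). The ratio calls that changed with 1 library left out are given beside each ratio above. They were judged by the unadjusted exact p, and the adjustment over all ratios was not repeated. With 1 library left out, the ratios in atg41Δ against WT ran from 0.61 to 0.67, 0.33 to 0.37, 0.80 to 1.16, 1.20 to 1.30, 0.84 to 0.93 and -1.13 to -1.04 in that order. In atg1Δ against WT they ran from 0.12 to 0.21, -0.011 to 0.069, 0.03 to 0.21, 0.26 to 0.39, 0.07 to 0.24 and -0.44 to -0.078, and in atg41Δ against atg1Δ from 0.43 to 0.52, 0.28 to 0.36, 0.66 to 1.01, 0.86 to 0.98, 0.65 to 0.82 and -1.01 to -0.65. Intervals cover the spread between libraries only.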
